A study of Saccharomyces cerevisiae with 8 samples.

Results

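The comparison described here is between yeast cells that carry a suppressor mutation called sup2- and their wild type, both with an intact ESA1 gene. The study compared Saccharomyces cerevisiae strains that contain ESA1, an essential histone acetyltransferase gene, with a strain that lives without it through a bypass suppressor, and of its 8 Affymetrix yeast arrays 5 are used here. They are the 2 wild-type arrays (genotype ESA1 SUP2) and the 3 arrays of the strain with genotype ESA1 sup2-, called the sup2- strain below, and they were chosen by their titles alone. Each culture of 10 mL was grown overnight at 30 °C to saturation in YPD, a rich medium of yeast extract and peptone, here with 2% glucose, and each array took 5 µg of total RNA. Nothing else is given for these strains: the labels leave out the identity of SUP2, the way sup2- was made, what the mating type or ploidy was, or which other alleles both strains carried. Whether replicates were grown as separate cultures is not stated either, and p-values therefore describe only the scatter of these samples, possibly a technical one.

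Esa1 is the catalytic subunit of NuA4, the complex that acetylates histone H4 and the variant H2A.Z at promoters, and the acetyl marks it places are removed by deacetylases such as Rpd3, Hda1, Hos2 and the Sir2 family. A yeast culture grown to saturation has used up its glucose. Cells in that state are known to turn down ribosome production and the division cycle, to turn on genes for stress resistance, trehalose, autophagy and respiration, and, in diploids that are also starved for nitrogen, to be able to enter meiosis and form spores. Meiosis itself runs in ordered waves, in which early genes for chromosome pairing and recombination are held off by Ume6 with Rpd3 and started by Ime1, and middle and late genes for spore walls are held off by Sum1 with Hst1 and started by Ndt80.

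Of 5498 probe sets that read 1 S. cerevisiae gene each, 98.9% to 99.3% per array lay above the background bound, which is the 99th percentile of probe sets made for genes outside the S. cerevisiae table. Leaving out the dimmest 20% left 4398 probe sets (4372 genes) for the test. The 2 wild-type arrays differed from each other with an SD of 0.109 on the log2 scale, and replicates 1 and 3 of the sup2- strain with an SD of 0.0892. Its replicate 2 differed more from replicates 1 and 3, with SDs of 0.205 and 0.202, and arrays of different strains differed with SDs of 0.501 to 0.520. The wild-type arrays were washed on fluidics station 1 and the sup2- arrays on station 3, so station and strain cannot be told apart. With 5 arrays the precision of each value is limited, and in RNA from whole cultures fewer cells of a type and less RNA per cell cannot be told apart.

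ESA1 (YOR244W, chromosome XV) was read on all arrays, as the labels of both strains say. Its signal was 1216 and 1067 in the wild type and 819, 894 and 877 in the sup2- strain. The groups did not overlap, and the log2 fold change was -0.35 (SE 0.07, adjusted p from limma = 0.0040).

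The comparison asks what the mutation changes where ESA1 is present. The strains differed in most tested probe sets, mostly by small amounts. Limma called 2868 of 4398 probe sets (65.2%) at an adjusted p under 0.05, of which 1477 (33.6%) were higher in the sup2- strain and 1391 (31.6%) lower. Arrays of the strains did not overlap for 3417 probe sets (77.7%). The median size of a log2 difference was 0.29, with a median SE of 0.07, and 127 called probe sets (2.89%) were at least 2-fold higher and 67 (1.52%) at least 2-fold lower. These shares are the background against which the counts of each gene group below are to be read. Of the calls 51.5% were higher, a share that became 63.2% with arrays scaled on the hybridisation control probe sets, 58.9% on the poly-A control probe sets, 45.5% after median centring and 48.0% after quantile normalization.

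The 15 largest increases and 15 largest decreases were taken only among called probe sets whose arrays did not overlap between the strains. The filter took the mean over all 5 arrays, and the lowest mean signal tested was 258. Wild-type means lay below that for DMC1, IME2, ANB1, TIR3, PGM1, GFD2, AAH1, MIG3 and YJL218W. Means of the sup2- strain did so for COS2, COS8, AQY1, NCA3, COS7, BNA2, SNO3 and BNA5. These genes passed the filter through the strain where they are high. Among the 15 largest increases, the first 3 were meiotic genes. The signal of DMC1 (YER179W), the recombinase that pairs homologous DNA in meiosis, was 219 and 212 in the wild type and 2657, 2491 and 2702 in the sup2- strain. Its log2 fold change was 2.96 (SE 0.06, adjusted p from limma = 1.3e-06). SLZ1, a sporulation gene, read 278 and 284 in the wild type against 2217, 1734 and 2208. IME2 (YJL106W), the kinase that drives cells through meiosis, read 188 and 168 against 1351, 1074 and 1366. In both genes the sup2- arrays lay far above the wild type, with log2 fold changes of 2.38 (SE 0.11) for SLZ1 and 2.15 (SE 0.10) for IME2. FIT3, a cell wall mannoprotein that holds iron carriers, read 1169 and 1047 against 5407, 4737 and 5250, a log2 fold change of 2.08. ZRT1, the high-affinity zinc transporter, read 954 and 892 against 4095, 4077 and 3991, a log2 fold change of 1.98.

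The other large increases were scattered over metabolism. PGM1, the minor phosphoglucomutase, read 186 and 206 in the wild type against 1090, 1169 and 1098 in the sup2- strain, a log2 fold change of 1.92 (SE 0.06). URA7, the CTP synthase, rose from 252 and 278 to 1313, 1390 and 1419 (log2 fold change 1.91). AAH1, adenine deaminase, an enzyme known to be shut off on entry into quiescence, rose from 172 and 189 to 1136, 721 and 1075 (log2 fold change 1.79). The nitroreductase-like gene HBN1, GFD2, and SRT1, an enzyme of dolichol synthesis known to be made in stationary phase, rose by 1.86, 1.85 and 1.78 on the log2 scale. In ANB1 (low-oxygen form of the translation factor eIF5A), TIR3 (a low-oxygen cell wall mannoprotein), MIG3 (a glucose-responsive repressor) and YJL218W, replicate 2 read far below replicates 1 and 3. ANB1 read 110 and 91.8 in the wild type against 1327, 350 and 1400, and TIR3 read 120 and 105 against 1338, 242 and 1512. Their log2 fold changes were 2.12 (SE 0.46) and 1.96 (SE 0.58), and 2.66 and 2.64 without replicate 2. ANB1 was not called without wild-type replicate 2, and TIR3 was not called without either wild-type replicate.

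The 15 largest decreases were led by a spore wall gene and an aquaporin. SPS100 (YHR139C), a late sporulation gene needed for a mature spore wall, read 5612 and 6312 in the wild type and 270, 383 and 358 in the sup2- strain, a log2 fold change of -3.69 (SE 0.11, adjusted p from limma = 4.4e-06). AQY1, the spore water channel, read 2611 and 2876 against 182, 237 and 154, a log2 fold change of -3.14. NCA3, a SUN-family cell wall gene, read 2271 and 2677 against 174, 244 and 208, a log2 fold change of -2.92. For all 3 genes every sup2- array lay far below both wild-type arrays. CTT1, the cytosolic catalase, fell from 2394 and 2733 to 406, 273 and 403 (log2 fold change -2.45). Of the other decreases, BNA2, BNA1 and BNA5 make NAD from tryptophan, PDC6 is a minor pyruvate decarboxylase, and PMA2 is a minor plasma membrane proton pump. COS8, COS2 and COS7 are members of a family of genes near chromosome ends. Of these 15, 5 lie within 20 kb of a chromosome's outermost annotated genes and 5 (COS2, COS7, YHR054C, SNO3 and THI13) are read by probe sets shared with related genes.

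**Figure D1:**
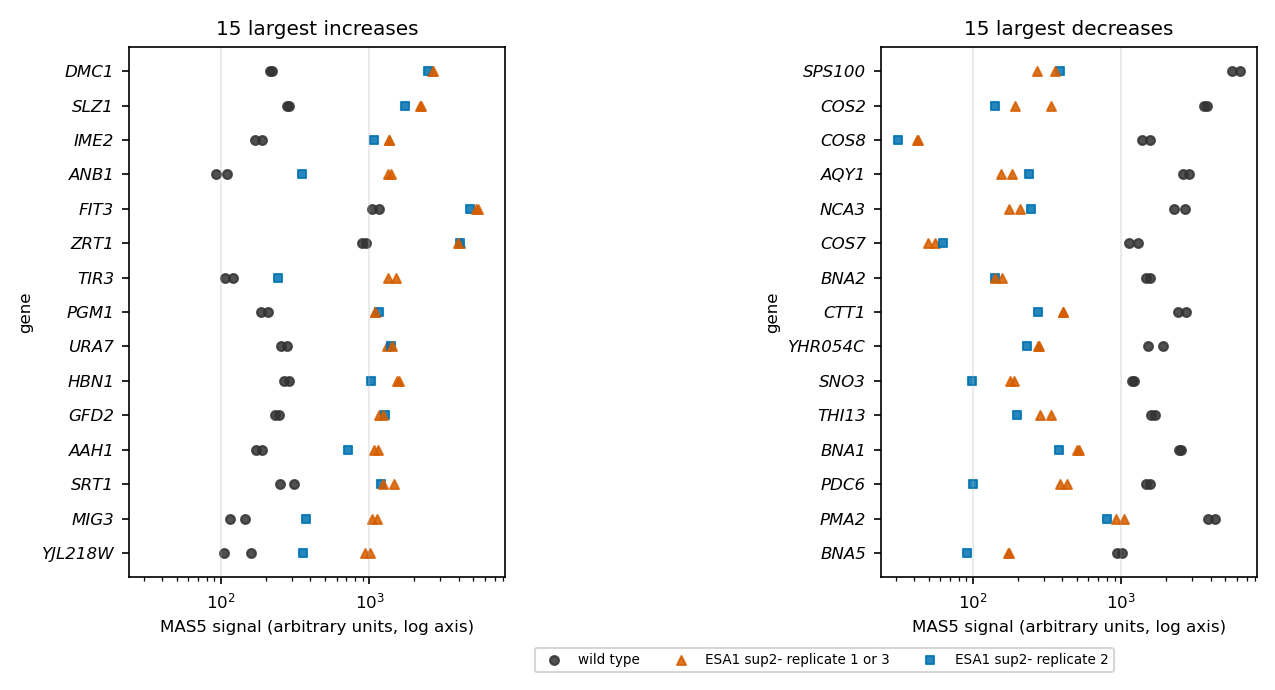
MAS5 signal (log axis, arbitrary units) on each of the 5 arrays for the 15 largest increases and the 15 largest decreases, with circles for the 2 wild-type arrays, triangles for replicates 1 and 3 of the sup2- strain and squares for its replicate 2. Genes were picked only among called probe sets whose strains do not overlap. For ANB1, TIR3, MIG3 and YJL218W the square lies far below the triangles.

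Early meiotic genes rose as a group, but most of them are too dim to pass the filter on low signal, so they were also read in a fit without that filter, which called 62.8% of 5498 probe sets, 31.9% higher and 30.8% lower. Of 37 early genes with a probe set, 22 were higher and 3 lower in that fit, with a median log2 fold change of 0.44. The lower count was 6 with quantile normalization or without sup2- replicate 2, and 7 with median centring. With the filter only 12 were tested, of which 7 were higher and 3 lower. SPO11, whose product makes the DNA breaks that start meiotic recombination, read 87.3 and 83.6 in the wild type against 428, 359 and 434, a log2 fold change of 1.29 (SE 0.08). HOP1, a protein of the meiotic chromosome axis, read 105 and 107 against 406, 393 and 419, a log2 fold change of 1.16. SPO16, a gene of crossover formation, read 92.3 and 97.8 against 497, 533 and 532, a log2 fold change of 1.503. The wild-type signals of these genes were low, and the pseudocount of 137 makes their fold changes on this scale smaller than those of the signals themselves.

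The rise reached most parts of the early programme. MND1 and HOP2, which act with DMC1 in strand exchange, had log2 fold changes of 1.24 and 1.001, and REC102, a partner of SPO11, of 0.99. SPO13, a gene of the first meiotic division, was at 1.15, and RIM4, an RNA-binding protein of meiosis, was at 0.93. The synaptonemal complex gene ZIP1 was at 0.66, RED1, an axis gene, at 0.52, and MEK1, a checkpoint kinase gene, at 0.48. REC8, the meiotic cohesin gene, was not called (log2 fold change 0.31, adjusted p from limma = 0.069), and MER1 and REC104 were at -0.09 and -0.13, also not called. IME1, the activator at the head of the pathway, was lower: it read 599 and 536 in the wild type against 471, 422 and 496, a log2 fold change of -0.23 (SE 0.08, adjusted p from limma = 0.038 without the filter). This call was kept in 10 of 16 alternatives and was lost with either control scaling, with all 8 arrays and without wild-type replicate 1, wild-type replicate 2 or sup2- replicate 1. SPS19, a peroxisomal enzyme of fatty acid breakdown, and SPS18 were the other members called lower, at -0.65 and -0.31.

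Genes of the middle and late waves did the opposite. Of 39 with a probe set, 24 were lower and 3 higher without the filter, with a median log2 fold change of -0.27. With the filter 10 were tested, of which 3 were lower and 3 higher, with a median of 0.06, so the lower count rests on the dim members. Of these 10, CLB4 passed the filter through its sup2- signal and AQY1 through its wild-type signal. SSP1, which shapes the leading edge of the spore membrane, read 530 and 459 in the wild type and 53.1, 40.5 and 56.3 in the sup2- strain, a log2 fold change of -1.75 (SE 0.07). OSW2, a gene of the outer spore wall, read 403 and 437 against 83.4, 65.7 and 71.9, a log2 fold change of -1.40. CDA1 and CDA2, the chitin deacetylases of the spore wall, were at -1.07 and -0.80, and the sporulation septins SPR28 and SPR3 at -0.99 and -0.71. In these genes every sup2- array lay below both wild-type arrays. NDT80, the activator of the middle wave, read 322 and 284 against 253, 216 and 290 and was not called (log2 fold change -0.18, adjusted p from limma = 0.14 without the filter). The 3 members called higher were SGA1, a sporulation glucoamylase gene (0.95), CLB4, a B-type cyclin gene that also acts in mitosis (0.85), and CRC1, the mitochondrial carnitine carrier (0.35). SGA1 read 786 in replicate 2 against 1689 and 1776 in replicates 1 and 3, and it was not called with the robust variance fit or without either wild-type replicate.

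**Figure D2:**
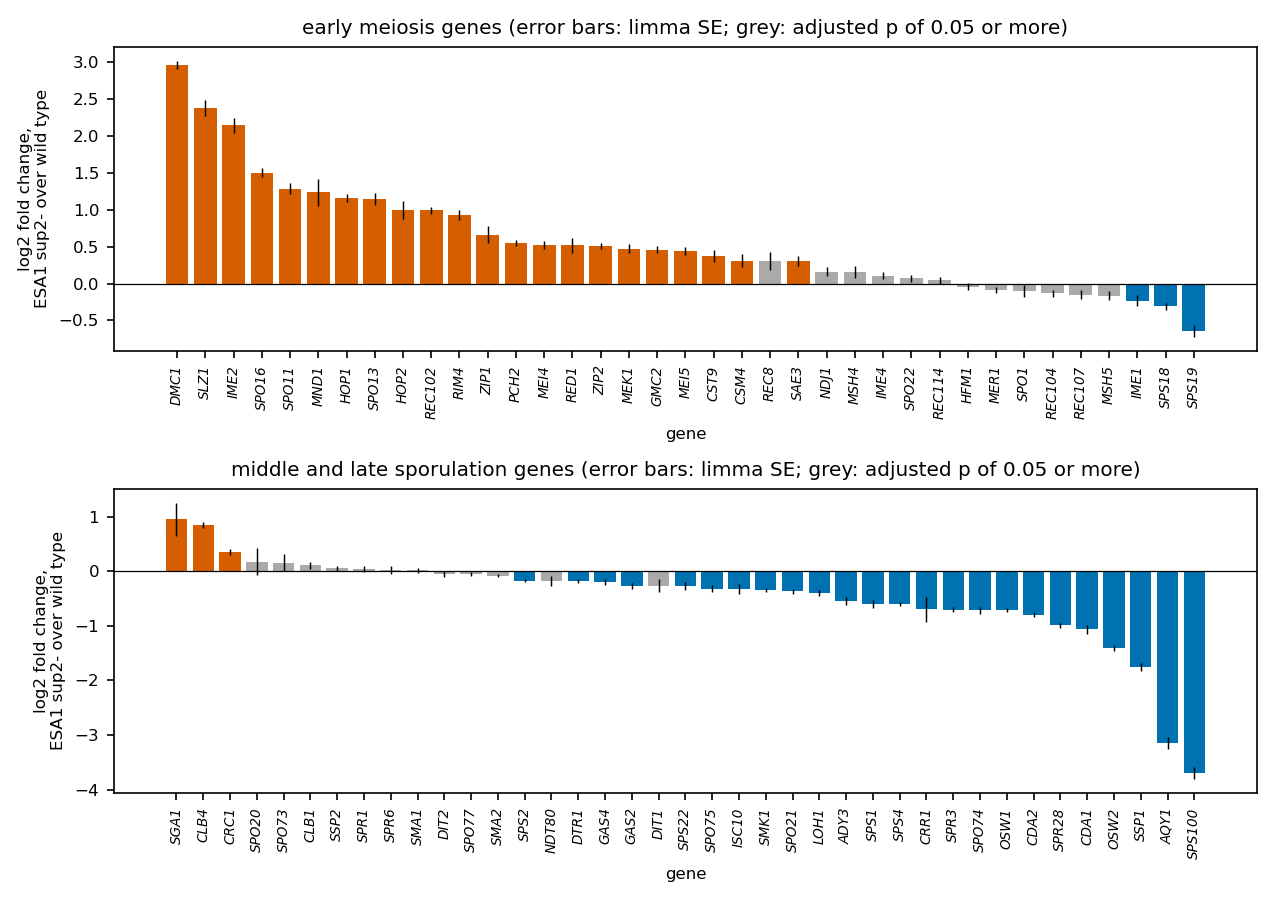
Log2 fold change (sup2- strain over wild type, bars, with the limma standard error) of every early meiotic gene (37, upper panel) and every middle or late sporulation gene (39, lower panel) with a probe set, from the fit without the filter on dim probe sets. Orange bars are called higher, blue bars lower and grey bars not called; 22 early genes are orange and 24 later genes are blue.

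The 8 markers of sporulating cells are all members of the middle and late list above, so they add no separate reading. Summed over 8 marker genes, the wild-type signal was 6511 and 7154, against 729, 733 and 882 in the sup2- strain, and SPS100 alone made up most of the wild-type sum. Without SPS100, SPS4 read 100 and 95.9 in the wild type against 12.9, 18.3 and 20.9, and SPS1, a kinase gene, read 144 and 134 against 48.1, 28.0 and 59.2. DIT1 read 118 and 110 against 88.7, 36.4 and 95.8 and, like NDT80, was not called without the filter. All 8 markers were above the background bound on all 5 arrays. The part of spores or sporulating cells in the wild-type values was not tested.

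NuA4, the complex that holds Esa1, was lower in 6 of its 12 tested genes and higher in 1 (median log2 fold change -0.20). TRA1, its large scaffold subunit shared with the SAGA complex, read 978 and 954 in the wild type against 523, 816 and 536, a log2 fold change of -0.56 (SE 0.16) that was called in 15 of 17 alternatives. EPL1, which ties the catalytic module to the rest, was at -0.38, the actin-related ARP4 at -0.31, EAF3, a chromodomain subunit shared with Rpd3, at -0.31, and YNG2, a subunit that reads methylated histone H3, at -0.25. With ESA1 these are the 6 lower members. YAF9, a YEATS-domain subunit shared with the SWR1 remodeller, was higher at 0.35. EAF1, EAF5, EAF6, SWC4 and ACT1 were not called, with log2 fold changes between -0.14 for SWC4 and 0.04 for EAF1. EAF7 did not pass the filter. The count of lower members was 3 without wild-type replicate 1 and 4 with hybridisation control scaling.

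The complexes of the deacetylase Rpd3 were mixed, with 6 of 14 tested genes higher and 3 lower (median 0.14). The catalytic gene RPD3 read 918 and 844 in the wild type against 746, 824 and 836 and was not called (log2 fold change -0.12, adjusted p from limma = 0.17). SIN3, the scaffold of both Rpd3 complexes, read 1485 and 1501 against 892, 1018 and 994, a log2 fold change of -0.56. DNA-binding partners moved the other way: UME6, which brings Rpd3 to early meiotic genes, read 396 and 356 against 839, 985 and 930 (log2 fold change 1.04), and TOD6, a repressor of ribosome biogenesis genes, read 376 and 361 against 983, 944 and 994 (log2 fold change 1.13). DOT6, the paralogue of TOD6, was at 0.46, the subunit gene SAP30 at 0.60, RXT3 at 0.25 and ASH1, a daughter-cell repressor, at 0.23. EAF3 was lower at -0.31 and DEP1 at -0.18, and DEP1 was called in only 9 of 17 alternatives. SDS3 and RCO1 did not pass the filter, and SDS3 read 204 and 194 against 177, 151 and 153. PHO23, RXT2, CTI6 and UME1 were not called.

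Other chromatin genes changed in both directions. Of 18 tested genes of other deacetylases and of silencing, 8 were higher and 6 lower. SUM1, the repressor of middle sporulation genes, read 1224 and 1276 in the wild type against 684, 668 and 693 (log2 fold change -0.76, SE 0.05), and its partner deacetylase HST1 read 1002 and 973 against 609, 698 and 627 (log2 fold change -0.53). Both were lower with no overlap between the strains, and HST1, SIR4, SIR3 and SIR2 are named here after their values were seen. SNT1, a subunit of the Set3 deacetylase complex, was at -0.65, and the silencing gene SIR4 at -0.46. DOT1, the histone H3 methyltransferase, was higher at 0.56 and SIR3 at 0.33, and SIR2 was not called (log2 fold change 0.05). Of 29 genes of the SWR1, INO80 and RSC remodellers, 11 were lower (37.9%) and 5 higher (17.2%). The lower count was 5 without wild-type replicate 1 or with hybridisation control scaling, 6 without wild-type replicate 2 or with poly-A control scaling, and 4 with all 8 arrays. Of 21 genes of SAGA and other acetyltransferases, 5 were lower and 4 higher, and the largest change was that of HPA3, a D-amino acid acetyltransferase gene, which rose by 1.09.

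Genes for making ribosomes rose almost without exception. Of 57 tested genes of large-subunit assembly, 55 were higher and 0 lower, with a median log2 fold change of 0.79 (all tested probe sets: 33.6% higher, median -0.01). Of 50 genes of the small-subunit processome, which cuts and folds the precursor RNA, 47 were higher and 1 lower (median 0.70). Of 18 subunit genes of RNA polymerases I and III, 17 were higher and 0 lower (median 0.69). ALB1, a shuttling assembly factor, read 289 and 299 in the wild type against 1069, 1032 and 1126, a log2 fold change of 1.49. NIP7, an assembly factor of the large subunit, read 582 and 598 against 1565, 1790 and 1710, a log2 fold change of 1.33. The exception in the processome was RRP7, which read 660 and 577 against 446, 407 and 398, a log2 fold change of -0.45. The largest increases of the processome list were SNU13, an RNA-binding protein, at 1.29, NOP1, the methyltransferase fibrillarin, at 1.16 and EMG1, another methyltransferase, at 1.16.

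The polymerases and the proteins of the ribosome itself followed. RPC19, a subunit common to polymerases I and III, read 1045 and 1054 in the wild type against 2513, 2345 and 2511, a log2 fold change of 1.13. RPA49, RPA135 and RPA34 of polymerase I were at 0.95, 0.95 and 0.91. In contrast, 10 tested genes for initiation factors and regulators of these polymerases gave 2 higher and 2 lower. MAF1, the repressor of polymerase III, was lower at -0.76, as was TFC3, a DNA-binding subunit of its factor TFIIIC, at -0.60, and BRF1 and RRN3 were higher at 0.29 and 0.33. Ribosomal protein genes were higher in 47 of 52 cases for the small subunit and 64 of 74 for the large, with 0 lower, and their medians of 0.39 and 0.40 were smaller than those of the assembly genes. Of these probe sets 12 and 10 are shared between near-identical gene copies, whose signals cannot be told apart. The exosome and its helpers gave 11 higher and 2 lower of 17, with the helicase gene MTR4 at 0.92 and the nuclease gene RRP6 at -0.53.

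Not every part of protein synthesis rose. Cytosolic aminoacyl-tRNA synthetases gave 10 higher and 2 lower of 19. Translation factors were higher in 13 of 34 (38.2%), near the 33.6% of all tested probe sets, and lower in 0. Core subunits of RNA polymerase II gave 8 higher and 2 lower of 12. Of the largest increases, RPB8 at 0.83, RPC10 at 0.57 and RPO26 at 0.48 are subunits that all 3 polymerases share. RPB9 was at 0.56. The lower members were RPB2 at -0.29 and RPB4 at -0.24, called in 13 and 12 of 17 alternatives. The 65 genes of mitochondrial ribosomal proteins gave 12 higher (18.5%) and 21 lower (32.3%), with a median of -0.05. The lower share was near the 31.6% of all tested probe sets. The lowest were MRP10 at -0.57 and MRPL35 at -0.55, and RSM26 was the highest at 0.39. That count of lower genes was 11 with poly-A control scaling, 5 with hybridisation control scaling and 9 without wild-type replicate 1, and the median changed sign between alternatives (-0.10 to 0.03).

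**Figure D3:**
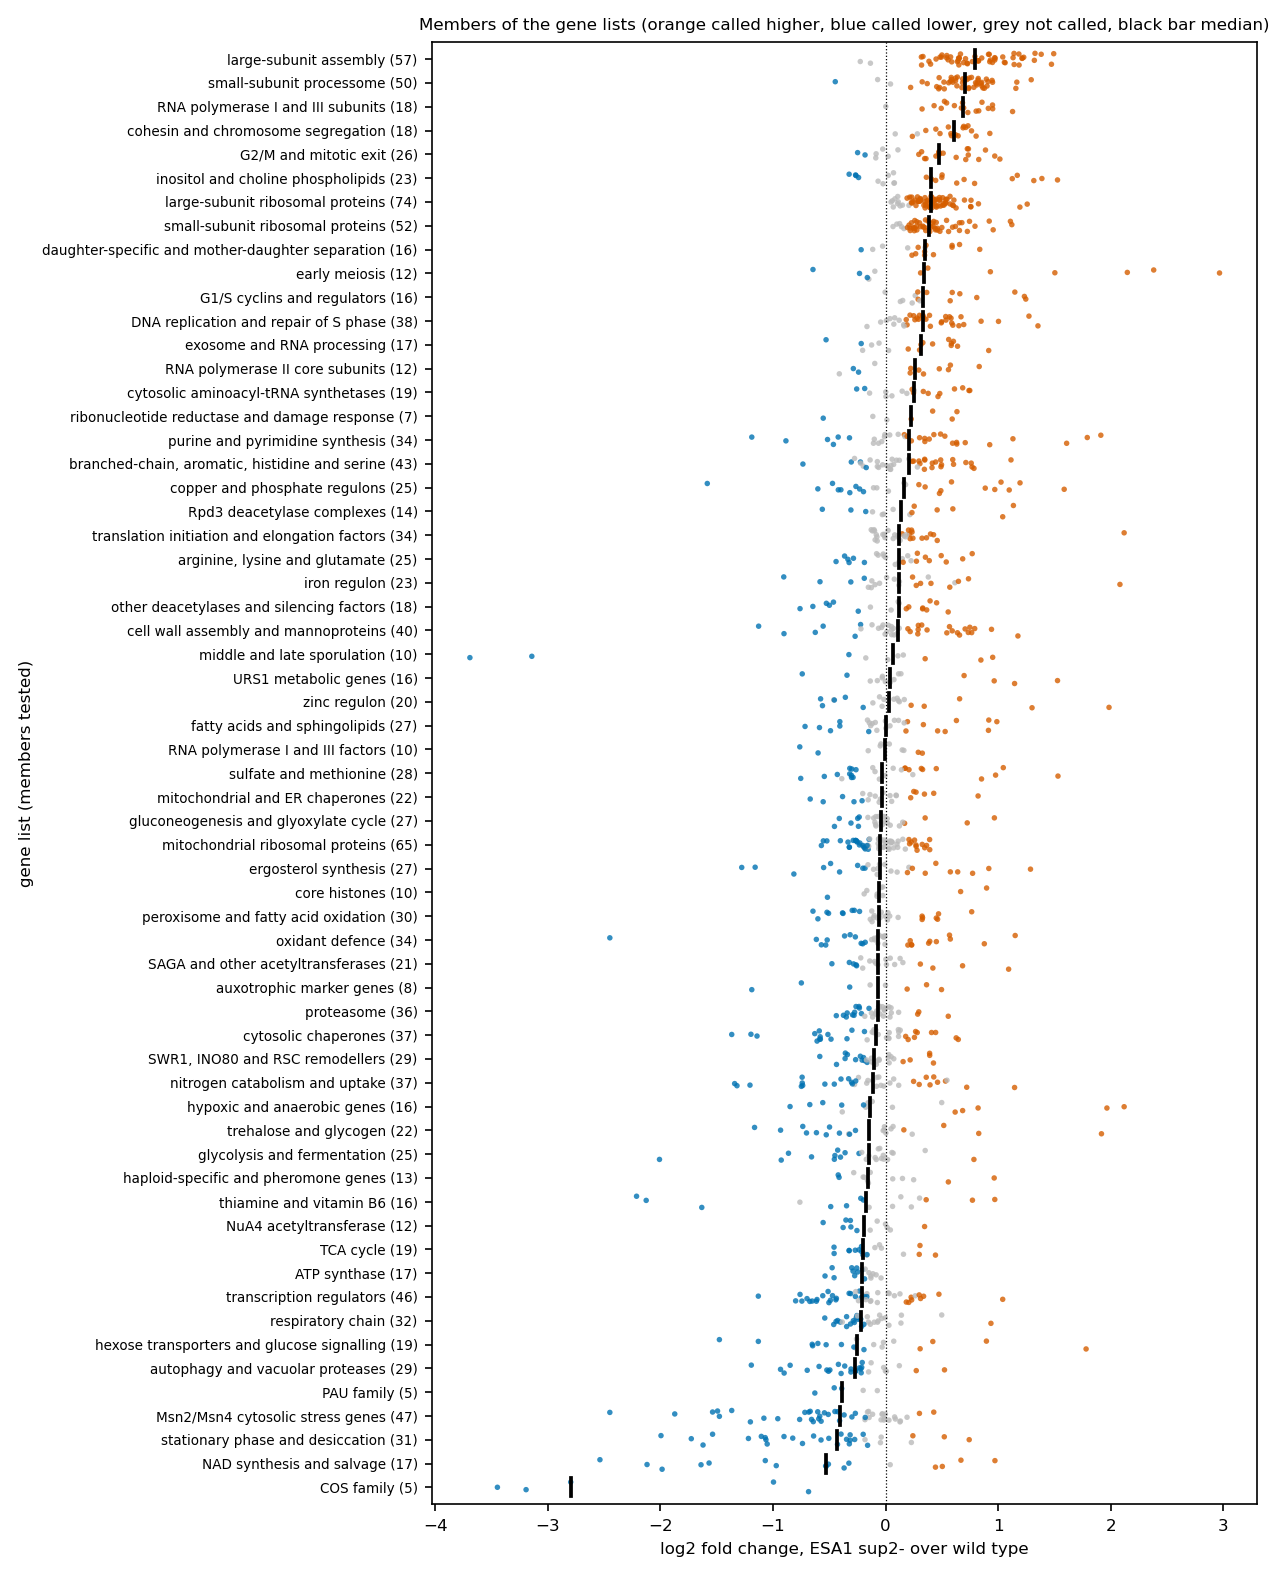
Log2 fold change (sup2- strain over wild type) of each tested member of the 61 gene lists with at least 5 tested members, ordered by median, with 1 point per gene, orange for called higher, blue for called lower and grey for not called; black bars are medians. Ribosome assembly, at 0.79 and 0.70, lies at the top, and NAD synthesis at -0.53 and the COS family at -2.80 at the bottom; the COS median was -0.84 without the filter on dim probe sets.

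Division genes were higher from G1 to mitosis. Of 16 tested G1/S genes, 10 were higher and 0 lower (median 0.33), of 38 genes of DNA replication 29 were higher and 0 lower (median 0.33), and of 18 genes of cohesin and chromosome segregation 16 were higher and 0 lower (median 0.60). The G1 cyclin gene CLN2 read 389 and 324 in the wild type against 948, 1082 and 844, a log2 fold change of 1.15. TOS4, a forkhead gene of G1/S, was at 1.24 and RSR1, a GTPase of bud site choice, at 1.23. In S phase, DPB2, a subunit of DNA polymerase epsilon, read 165 and 146 against 565, 575 and 570 (log2 fold change 1.27), and POL30, the sliding clamp PCNA, was at 1.002. The checkpoint kinase gene DUN1 was at 1.35.

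The later cycle showed the same. Of 26 G2/M and mitotic exit genes, 19 were higher and 2 lower (median 0.47). DBF2, a kinase of mitotic exit, read 480 and 467 in the wild type against 1101, 1054 and 1136 (log2 fold change 1.01), and CDC20, which switches on the anaphase-promoting complex, was at 0.97. STU2, a microtubule-binding gene, was at 0.93. Daughter-cell and separation genes gave 11 higher and 1 lower of 16 (median 0.35), with NIS1, a bud neck gene, at 0.84. The count of higher genes in that list was 6 without wild-type replicate 2. Core histone genes, which are made in S phase, did not follow the replication genes, with 2 of 10 higher and 1 lower. The 2 were CSE4, the centromeric histone, at 0.90 and HHO1, the linker histone, at 0.67.

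Stress and quiescence genes fell. Targets of the stress factors Msn2 and Msn4 were lower in 28 of 47 tested cases and higher in 2 (median -0.41), and of 31 genes of stationary phase and desiccation 24 were lower and 3 higher (median -0.43), against 31.6% lower over all tested probe sets. GND2, a minor enzyme of the pentose phosphate pathway, read 3658 and 3799 in the wild type against 1122, 667 and 1024, a log2 fold change of -1.87. GRE1, a hydrophilin, read 5706 and 7148 against 2419, 1762 and 2205, a log2 fold change of -1.54. TKL2, a minor transketolase, was at -1.49. In stationary phase genes, PMA2 read 3832 and 4300 against 1049, 798 and 916 (log2 fold change -1.99), HBT1, which shapes mating cells, was at -1.73 and FMP45, an eisosome-related membrane gene, at -1.62. No array of the sup2- strain reached the wild-type level for any of these 6 genes, which for PMA2 was a condition of its choice. Over all tested probe sets 77.7% did not overlap between the strains.

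Related groups differed in how uniformly they moved. Autophagy and vacuolar protease genes gave 21 lower and 2 higher of 29 (median -0.27), with AMS1, a vacuolar mannosidase that is a cargo of selective autophagy, at -1.19, its receptors ATG19 and ATG34 at -0.93 and -0.90, ATG10 at -0.85 and ATG18 higher at 0.52. The lower count was 13 with hybridisation control scaling. Trehalose and glycogen genes gave 10 lower and 4 higher of 22, with TSL1, a subunit of trehalose synthase, at -1.16 and PGM1 as the largest increase. Cytosolic chaperones gave 14 lower and 9 higher of 37: SSA3 and SSA4, stress-induced genes of the Hsp70 family, had values of -1.37 and -1.20 and the Hsp110 gene SSE2 at -1.14, while SSA2, a constitutive Hsp70 gene, was higher at 0.65. Oxidant defence genes were split with 11 higher and 11 lower of 34, with CTT1 falling and OYE2, an NADPH oxidoreductase, and TRR1, thioredoxin reductase, higher at 1.15 and 0.88. Of 36 proteasome genes 12 were lower (33.3%), near the background share, and 3 higher (8.3%), below it. That lower count was 4 with hybridisation control scaling, under which the median of the list was above 0.

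Respiratory genes were somewhat lower, by small amounts. Of 17 ATP synthase genes 10 were lower and 0 higher (median -0.21), of 32 respiratory chain genes 16 were lower and 1 higher (median -0.22), and among 19 genes of the tricarboxylic acid cycle 10 fell and 3 rose (median -0.20). With poly-A control scaling the lower counts were 5, 8 and 5, shares near that of all probe sets (1111 of 4398 lower). With hybridisation control scaling they were 7, 12 and 5, where 931 of 4398 were lower. The medians of all 3 lists stayed below 0 in every alternative. The single respiratory gene that rose was COQ2, of ubiquinone synthesis, at 0.94. Glycolysis and fermentation genes gave 10 lower and 1 higher of 25, the higher being HXK2, the main hexokinase, at 0.78. PDC6, the lowest, read 1476 and 1571 in the wild type and 427, 100 and 388 in the sup2- strain, with replicate 2 apart from the others. Hexose transport and glucose signalling genes gave 9 lower and 4 higher of 19 (median -0.26). HXT5, a transporter of slow-growing cells, was at -1.48, CAT8, an activator of growth on non-fermentable carbon, at -1.13 and MIG3 at 1.78. Without the filter on dim probe sets that list gave 11 lower and 8 higher of 32, with a median of -0.01. Over all probe sets of that fit 30.8% were lower and 31.9% higher. Gluconeogenesis genes were mostly not called (6 lower and 4 higher of 27), and FDH1, formate dehydrogenase, rose from 4846 and 4543 to 9704, 8694 and 9516.

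Genes for NAD synthesis from tryptophan were among the most strongly lowered in the genome. Of 17 tested genes of NAD synthesis and salvage, 12 were lower and 4 higher (median -0.53). BNA2 (YJR078W), which opens the tryptophan ring as the first step, read 1465 and 1550 in the wild type against 158, 141 and 141, a log2 fold change of -2.54 (SE 0.06, adjusted p from limma = 1.8e-06). BNA1 read 2435 and 2514 against 501, 382 and 519 (log2 fold change -2.12), and BNA5, kynureninase, read 1015 and 935 against 175, 91.3 and 173 (log2 fold change -1.98). The nicotinic acid transporter TNA1 read 2683 and 2767 against 794, 762 and 789 (log2 fold change -1.64). Named after their values were seen, BNA4 and BNA6, of the route from tryptophan, were at -1.57 and -1.07. NPT1, the nicotinic acid salvage enzyme, also named so, was at -0.97. The strains did not overlap for any of these 7 genes, which for BNA2, BNA1 and BNA5 was a condition of their choice. Over all tested probe sets 77.7% did not overlap. BNA2 and BNA5 passed the filter through their wild-type signal, and were tested in 15 and 13 of 17 alternatives.

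The genes of that list that rose belong to other steps. PNP1, a purine nucleoside phosphorylase that also splits nicotinamide riboside, was at 0.97, NMA1, an adenylyltransferase, at 0.67, and NRK1 and URH1, of nicotinamide riboside use, at 0.44 and 0.50. NMA2, the paralogue of NMA1, was lower at -0.53. BNA3 was not called (log2 fold change 0.04, adjusted p from limma = 0.72). The counts of 4 higher and 12 lower were the same with quantile normalization, median centring and both control scalings, and 4 and 10 without wild-type replicate 2.

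Nucleotide genes were mostly higher, with some exceptions. Of 34 tested genes of purine and pyrimidine synthesis, 19 were higher and 6 lower (median 0.21). IMD4, IMP dehydrogenase, read 345 and 372 in the wild type against 1318, 1262 and 1553 (log2 fold change 1.61), and GUA1, GMP synthase, was at 1.13; both act on the way to GTP. URA7 and AAH1, described above, were the largest of the list. ADE2, an enzyme of the purine ring and a common marker gene, read 2563 and 2654 against 1018, 1154 and 1034, a log2 fold change of -1.19. MTD1, which makes one-carbon units for purines, was at -0.89. Of 8 auxotrophic marker genes, 3 were higher and 3 lower: besides ADE2, CAN1, the arginine permease, was at -0.75, and HIS3 and URA3 were higher at 0.50 and 0.19, the last called in 12 of 17 alternatives. No marker gene was at background in either strain.

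Lipid genes split by pathway. Of 23 genes of inositol and choline phospholipids, 13 were higher and 4 lower (median 0.41). INO1, which makes inositol phosphate, read 2390 and 2450 in the wild type against 7404, 7226 and 7058 (log2 fold change 1.53). PIS1, phosphatidylinositol synthase, was at 1.39, EPT1, a phosphotransferase of phosphatidylethanolamine synthesis, at 1.32 and CDS1, CDP-diacylglycerol synthase, at 1.17. The regulators OPI1 and INO4 were not called, at 0.08 and 0.02, and are named after their values were seen. Ergosterol genes gave 9 higher and 9 lower of 27: MVD1, mevalonate diphosphate decarboxylase, and ERG4, the last enzyme, were at 1.29 and 0.92, whereas ERG3 and ERG25, 2 oxygen-dependent enzymes, were at -1.28 and -1.16. Fatty acid and sphingolipid genes (9 higher and 6 lower of 27) were near the background shares.

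Genes of metal uptake rose singly rather than as regulons. Iron regulon genes were higher in 8 of 23 tested cases (34.8%), near the 33.6% of all tested probe sets, and lower in 4 (17.4%). FIT3 was the largest change among them, and SMF3, the vacuolar iron exporter, was at -0.90. Without the filter on dim probe sets 9 of 33 were higher and 7 lower. ARN2 was the lowest there at -1.24, reading 317 and 323 in the wild type against 60.5, 46.8 and 61.9. FIT2, the neighbour of FIT3, read 1299 and 1232 in the wild type and 3078, 838 and 3024 in the sup2- strain and was not called. Zinc regulon genes gave 5 higher and 5 lower of 20, with ZRT1 joined by ZPS1, a cell wall gene of low zinc, at 1.30. For ZPS1 too replicate 2 (747) lay below replicates 1 and 3 (1620 and 1425), while ZRT1 was alike in all 3. Copper and phosphate genes gave 11 higher and 9 lower of 25. PHO5, the secreted acid phosphatase, read 1697 and 1619 against 5767, 4109 and 6098 (log2 fold change 1.59), and PHO90, a low-affinity phosphate transporter, was at 1.02. PHO84, the high-affinity transporter, was not called (0.16), and PHO11, read by a shared probe set, was at -1.58. The copper transporter gene CTR1 and FRE7, a reductase gene, rest on 1 wild-type array: CTR1 read 500 and 1840 in the wild type, and FRE7 read 81.9 and 520.

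Amino acid and nitrogen genes showed several opposite movements. Of 43 genes for branched-chain, aromatic, histidine and serine synthesis, 20 were higher and 4 lower (median 0.21), with LEU9, of leucine synthesis, at 1.11. The sulfate and methionine list gave 10 higher and 10 lower of 28 (35.7% each), near the 33.6% and 31.6% of all tested probe sets. In it the S-adenosylmethionine synthetases SAM2 and SAM1 were higher at 1.53 and 1.04, as was SAH1, which recycles the spent product, at 0.98. SAM2 read 981 and 958 in the wild type against 3034, 2986 and 3161. Nitrogen catabolism genes gave 14 lower (37.8%) and 9 higher (24.3%) of 37, against 31.6% and 33.6% over all tested probe sets. That lower count was 7 with all 8 arrays, where 973 of 4398 probe sets were lower. DAL2, of allantoin breakdown, was at -1.34 and was tested in 13 of 17 alternatives. PUT4, the proline permease, was at -1.32, and CAR1, arginase, a known target of Ume6, was higher at 1.14. CAR1 read 2316 and 2367 against 5301, 5567 and 5170. Of 16 tested metabolic genes listed for a Ume6 site, with CAR1 and INO1 among them, 4 were higher and 2 lower, so that most were not called.

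Cell wall genes gave 19 higher and 6 lower of 40 (median 0.11), with GAS3, of the glucan-remodelling family, at 1.17 and SKN1, of glucan synthesis, at -1.13. Of 46 genes of transcription regulators, 23 were lower and 9 higher (median -0.21). UME6 was the largest increase there, and CAT8 the largest decrease. NRG1, a glucose-dependent repressor, was at -0.80 and TEC1, a factor of filamentous growth, at -0.74. GIS1 and XBP1, regulators of the approach to quiescence named after their values were seen, were at -0.70 and -0.96, MSN2 was at -0.32 and MSN4 was not called (-0.20). The thiamine and vitamin B6 list gave 7 lower and 3 higher of 16, but its largest changes, THI13 at -2.13 and SNO3 at -2.21, come from probe sets shared between gene copies.

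The COS family, whose genes lie beside telomeres and whose proteins act in sorting membrane proteins to the vacuole, had the lowest median of the lists. All 5 tested members were lower (median -2.80), and without the filter 7 of 8 were lower (median -0.84). COS2, COS7 and COS8 passed the filter through their wild-type signal. COS7 and COS8 did not pass it with a pseudocount of 1, without the dimmest 50%, without either wild-type array or with all 8 arrays. Without wild-type replicate 1, without replicate 2 and with all 8 arrays, 3 members were tested, all lower, and the median was -0.98, -1.02 and -0.996. COS8 (YHL048W), which has a probe set of its own, read 1375 and 1564 in the wild type against 42.0, 31.0 and 42.5, a log2 fold change of -3.19 (SE 0.07, adjusted p from limma = 1.7e-06). COS6, also with its own probe set, read 997 and 912 against 571, 478 and 581, a log2 fold change of -0.68. COS2, COS7 and COS4 were at -3.45, -2.80 and -0.996, each from a shared probe set that cannot tell family members apart.

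Among probe sets that passed the filter, those near chromosome ends were lower more often. Of 24 within 10 kb of a chromosome's outermost annotated gene, 16 (66.7%) were lower and 3 higher. Their median log2 fold change was -0.69. Of the 16, COS2, COS7, COS8, ARR1, PHO11, MIX23 and MNT2 had sup2- means below 258, the lowest mean signal tested. They passed the filter through their wild-type signal. MAL32, among the 3 higher, passed it through its sup2- signal. No count without the filter is given here. Leaving out shared probe sets, 7 of 12 (58.3%) were lower and 0 higher. The share of lower genes was 41.7% of 48 from 10 to 20 kb, 40.7% of 91 from 20 to 30 kb and 31.1% of 225 from 30 to 50 kb, and it was 30.6% beyond 200 kb. Close to the ends, ARR1, an activator of arsenic resistance, read 1080 and 971 against 169, 377 and 198 (log2 fold change -1.63), and MIX23 read 756 and 776 against 185, 243 and 197 (-1.39); both are named after their values were seen. The 3 probe sets called higher there, those of SOR2, MAL32 and YMR321C, are all shared with related genes. The count of lower genes was 9 without wild-type replicate 2. The PAU family of seripauperins, which are also mostly subtelomeric, gave 9 lower and 0 higher of 13 without the filter, and 10 of its probe sets, 7 of them among the 9, are shared between related genes. By whole chromosome, medians ran from -0.10 for VI to 0.11 for VIII.

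**Figure D4:**
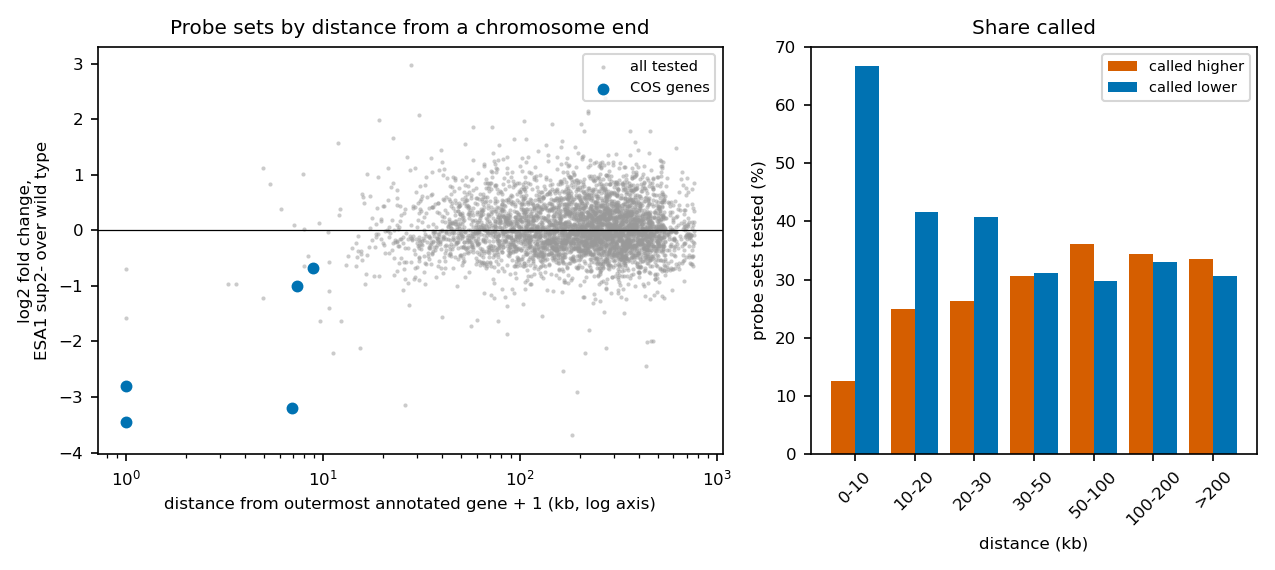
Left, log2 fold change (sup2- strain over wild type) of each tested probe set against distance from its chromosome's outermost annotated gene plus 1 kb (log axis), with the 5 tested COS genes in blue; right, percentage of tested probe sets called higher (orange) or lower (blue) by distance. The blue bar is 66.7% within 10 kb and 30.6% beyond 200 kb.

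Markers of mating type did not move together. All 5 markers of alpha cells were above background on all arrays, and their summed signal was 6877 and 6749 in the wild type and 6770, 4510 and 5364 in the sup2- strain. STE3, the receptor for a-factor, was lower at -0.96 and AFB1, the a-factor barrier gene, at -0.52, while SAG1, the alpha agglutinin, was higher at 0.88. MF(ALPHA)1, which makes most of the alpha pheromone, read 4209 and 4274 against 4610, 2562 and 3278 and was not called. The 7 markers of a cells, also above background on all arrays, summed to 632 and 610 in the wild type and to 970, 417 and 916 in the sup2- strain, and none passed the filter. MFA1 and AGA2 held the high values of replicates 1 and 3 and were not called without the filter, where STE2, STE6 and BAR1 were lower and 0 of the 7 higher. The 8 markers of haploid cells summed to 6746 and 6374 against 6833, 5495 and 6475, with RME1 as the largest part. Of the 8, STE18 was lower at -0.42, as was STE5 without the filter at -0.39. The wider list of haploid and pheromone genes gave 11 lower and 3 higher of 26 without the filter (all probe sets: 30.8% and 31.9%). PRM2, at -0.93, fell most. That lower count was 6 without wild-type replicate 2. With the filter 2 of 13 were lower and 2 higher. HO, the mating-type switching endonuclease gene, which is known to be kept off in diploids, read 135 and 161 against 359, 579 and 347, a log2 fold change of 0.96. The mating type and ploidy of the cultures were not tested.

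Replicate 2 of the sup2- strain departed from replicates 1 and 3 in a limited set of genes. In 18 tested probe sets it lay at least 2-fold below the mean of the others, and in 0 at least that far above, while replicates 1 and 3 never differed by 2-fold. Of these 18, 9 were called against the wild type and 9 were not. They include THI4, of thiamine synthesis (391, 71.4 and 404 in replicates 1, 2 and 3), RNR3, a damage-inducible ribonucleotide reductase gene (614, 154 and 547), PTR2, the peptide transporter (591, 158 and 549), and YEL073C (588, 74.2 and 772). The wild-type arrays read 520 and 530 for THI4, 441 and 434 for RNR3, 238 and 212 for PTR2 and 400 and 347 for YEL073C. The wild type thus lay above all 3 replicates for THI4, and between replicate 2 and the others for RNR3, PTR2 and YEL073C. In the opposite sense, by less than 2-fold, replicate 2 was high in RNR1, a ribonucleotide reductase gene of S phase (681, 1057 and 657), and in HTB2, a gene of histone H2B (1022, 1675 and 1013). These 6 genes were chosen after their values were seen. Most gene groups gave similar counts without that array: 53 of 57 large-subunit assembly genes were higher and 2 lower, 27 of 38 replication genes were higher and 1 lower, 15 of 18 cohesin and segregation genes were higher, 28 of 47 Msn2 and Msn4 targets were lower, and NAD genes gave 4 higher and 12 lower. Other lists moved more. Genes for branched-chain, aromatic, histidine and serine synthesis went from 4 to 10 lower (median 0.21 to 0.09), core histone genes from 1 to 3 lower and nitrogen catabolism genes from 14 to 20 lower. Respiratory chain genes and glycolysis genes went from 1 to 3 higher each, and the median of the metabolic genes listed for a Ume6 site from 0.04 to -0.03. In the fit without the filter, leaving it out gave 25 of 37 early meiotic genes higher and 25 of 39 later sporulation genes lower.

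**Figure D5:**
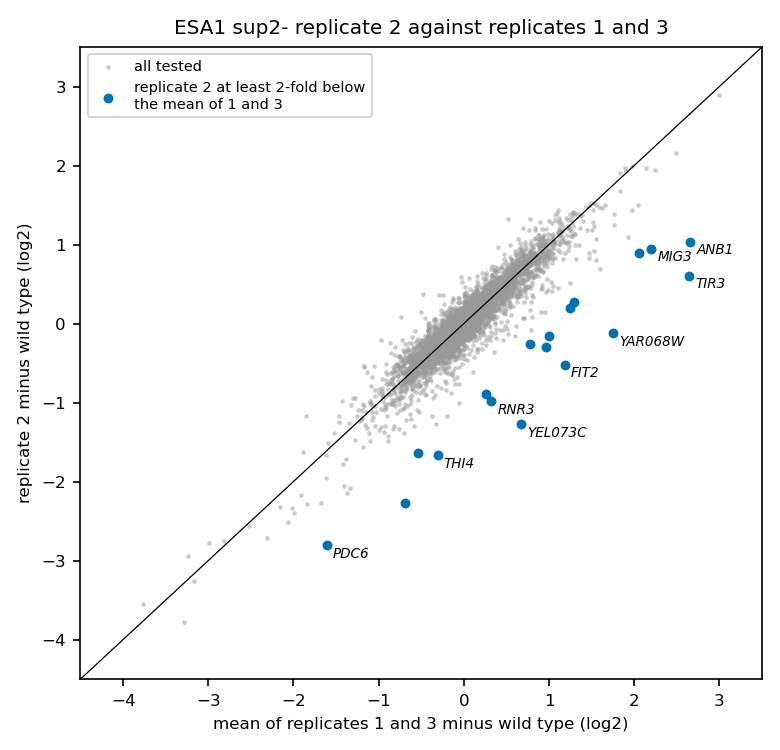
Log2 difference of replicate 2 of the sup2- strain from the wild-type mean (vertical axis) against that of the mean of its replicates 1 and 3 (horizontal axis) for all tested probe sets, with the line of equal values. The 18 blue points are probe sets at least 2-fold below the line; most other points lie along it.

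Because the labels do not name the SUP2 gene, genes at background on every array of 1 strain and above it on every array of the other were listed. There were 12 of 5498, of which 10 were below background in the sup2- strain and 2 (FRE5 and YGL235W) in the wild type. With the 95th percentile as the bound the count was 3, and the 10 genes and FRE5 no longer qualified. None of the 12 passed the filter on low signal, and the highest wild-type signal among the 10 was 56.4. YOL164W-A, at 37.5 and 56.4 in the wild type, was at least 5.48-fold lower, YBR200W-A at least 3.77-fold, ANS1 at least 3.40-fold and DTR1, a spore wall transporter, at least 2.86-fold. The other 6 (YKL096C-B, YDR169C-A, PFS1, YPS5, YML054C-A and YHR086W-A) were at least 1.33-fold to 2.34-fold lower. FRE5, a reductase gene of the iron regulon, was at least 3.11-fold higher in the sup2- strain and YGL235W at least 1.29-fold. Every gene of the NuA4 and Rpd3 lists was above background on all 5 arrays.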

How the data were processed

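The deposited probe-set intensity values came from the authors on a linear scale, and the submitters' processing notes name GCOS and MAS5 without versions. The mean without the outer 2% of probe sets was 499.8 on every array. Instrument records served for the fluidics station alone. The value table held 10928 probe sets: 5498 of 1 S. cerevisiae gene (5449 genes, 128 probe sets shared between genes), 1746 of other species, 3470 with no gene listed, 166 controls, 47 reporters and 1 of several genes.

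The analysed value was log2(signal + 137). The pseudocount of 137 lies at the 10th percentile of these 5 arrays and understates fold changes of dim genes. The dimmest 20% were left out, and the 5 arrays alone were fitted in R 4.3.3 using limma 3.58.1 (lmFit, eBayes with trend, Benjamini-Hochberg). For genes with several probe sets the brightest was used. A gene below the 99th percentile of other-species probe sets on all arrays of a strain has a fold that is a lower bound ("at least N-fold"), the bright strain's mean log2 signal against that percentile. The steps were tested on simulated data. Named are ESA1, the 15 largest increases and decreases, up to 4 and 2 called members per list, genes at background in 1 strain and all NuA4 and Rpd3 members; the meiotic lists follow the same rule without the filter, and others there or elsewhere were named after their values were seen. Members and lists were chosen with earlier results of these data known. Alternatives were other pseudocounts, normalizations, filters, variance models, all 8 arrays, a replicate block and each array left out; for the meiotic lists, other scalings and left-out arrays without the filter were chosen after seeing the data. Poly-A scaling used the lys, phe, thr and dap probe sets without trp, which read near background; added control RNA is not mentioned in the labels. Promoter motifs were not analysed here. Figures were drawn with matplotlib 3.10.9.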

Additional observations from a re-analysis of the deposited data

Results flagged for a closer look

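Of the 3470 probe sets with no gene listed, 217 were above the background bound on all 5 arrays. Among these probe sets, which no comparison above uses, 5 were at least 2-fold higher in the sup2- strain and 4 at least 2-fold lower, with no overlap between the strains. The log2 differences reached 1.798 and -1.676. None of the 47 reporter probe sets differed 2-fold, with 11 above background.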

How the results depend on the processing

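Calls numbered 2868 and ran from 2209 to 3217 over left-out arrays (1176 to 1601 higher, 966 to 1616 lower). They were 2697 with a replicate block, 2224 with all 8 arrays, 2531 and 2703 with hybridisation and poly-A control scaling, and 1813 (893 higher, 920 lower) without the dimmest 50%, where fewer probe sets are tested. Same-numbered arrays of the 2 numbers that the strains share deviated together with correlations of 0.112 and 0.144, so the numbers were not treated as pairs. ESA1 was called lower in all 17 alternatives. Of 338 named genes 328 were called, and 59 of them lost the call under at least 1 alternative. The early meiotic genes called higher without the filter ran from 20 to 25 and the later sporulation genes called lower from 21 to 26 over 9 alternatives each.

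Lists with at least 50% of their tested members called lower numbered 11, but 7 with poly-A scaling, 5 with hybridisation scaling, 4 with all 8 arrays and 4 to 16 over left-out arrays. Genes at background in 1 strain numbered 12, but 3 with the 95th percentile as the bound. Genes called lower within 10 kb of an end numbered 16, but 8 without the dimmest 50% and 9 to 16 over left-out arrays. Among the 338 genes named by rule, the sign changed in 7, all near 0 and not called. With quantile normalization and median centring EAF1 was at -0.029 and -0.01, and EAF5 at -0.0554 and -0.0381. With poly-A and hybridisation scaling ACT1 was at 0.063 and 0.0918, CTI6 at 0.0298 and 0.0563 and UME1 at 0.0336 and 0.0556, and EAF6 was at 0.0059 with the latter. With the replicate block ACT1 was at 0.0046 and CTI6 at 0.0178. Over left-out arrays EAF1 ran from -0.0249 to 0.1086, EAF5 from -0.0513 to 0.052, ACT1 from -0.1101 to 0.1076, RXT2 from -0.0007 to 0.1109, CTI6 from -0.0796 to 0.0196 and UME1 from -0.0492 to 0.0119. The cause of these changes was not tested. Signal over background limits the dim meiotic genes, most of which did not pass the filter.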
